A study of Rattus norvegicus with 9 samples.

Results

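Gene expression in the native patellar enthesis of the rat was described from the threshold cycles (Ct) of a rat osteogenesis PCR array. The enthesis is the fibrocartilaginous attachment of a tendon to bone, here of the patellar tendon to the tibia. The members are the 84 target genes of the array as measured in native tissue, which is 1 of 9 groups. They were ranked by dCt, the Ct of a gene minus the average of the reference genes *Ldha* and *Rplp1*, and a gene counted as detected at a Ct of 35 or less. Ct is the PCR cycle in which fluorescence of the product passes a set level, and it comes earlier with more template. By this rule 20 of 84 target genes (23.8%) were detected, 39 had a Ct over 35 and 25 were Undetermined, which means that no Ct was recorded.

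Native tissue came from the uninjured patellar enthesis of the opposite leg of operated adult male Sprague Dawley rats and had received no treatment. Its label gives a time of 4 weeks. The operated groups of the same array, used here for side-by-side ranks only, had received a silk fibroin scaffold with a mixed (S-MT) or abrupt (S-AT) transition, an empty defect with the tendon sutured back (ED) or a tendon cut across its width near the enthesis (TC). Each was measured 4 and 12 weeks after surgery. The design states 8 samples of native tissue, yet only 1 value per gene was deposited for it, and whether this is 1 rat, a mean or pooled RNA is not stated. There is therefore no replicate check and no test, and every difference below describes 1 value against another. The tissue was harvested after tensile testing to failure. In bulk tissue, fewer cells of a type and less RNA per cell cannot be told apart.

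The tensile part of an enthesis is built from fibrils of type I collagen with smaller amounts of types III and V, while its fibrocartilage also holds type II collagen, aggregating proteoglycans and cartilage oligomeric matrix protein. Its cells keep this matrix in place at low turnover, in a tissue with few vessels and few cells. Bone morphogenetic proteins (BMPs), hedgehog ligands and the transcription factors of osteoblasts, by contrast, drive the formation and mineralization of skeletal tissue.

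The order of the detected genes was led by matrix genes. *Col1a2*, which encodes the second chain of type I collagen, came first with a Ct of 27.9 and a dCt of -2.14 cycles. *Fn1*, which encodes the adhesive matrix glycoprotein fibronectin, followed at a Ct of 28.2 (dCt of -1.85). *Col3a1*, the chain of the thin-fibril collagen III, ranked 3 with a Ct of 29.6 (dCt of -0.43). These 3 were the only target genes earlier than the mean of the reference genes. If template doubles in every cycle, their levels were 4.40, 3.60 and 1.35 times that mean, and together they made up 79.7% of the summed level of the 20 detected genes.

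Part of the promoter of *Col1a2*, the leading gene, is shown for its core motifs, from RefSeq (build GRCr8, chr4:33518326-33518402, plus strand). Capitals mark ATTGG, the reverse complement of the CCAAT box, and TATAAA, the TATA box, 46 bases downstream of it and 170 bases before the annotated gene start.
Col1a2: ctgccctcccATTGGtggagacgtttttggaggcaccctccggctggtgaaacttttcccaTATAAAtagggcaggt
Promoters of 300 bases were found for 14 of the 20 detected genes. Each motif was searched on both strands. TATAAA was present in 3 of them (*Col1a2*, *Cd36* and *Smad4*), which is 21.4%, against 14.3% of 27457 promoters in the table, and CCAAT in 5 (35.7%), against 37.7%. The GC box GGGCGG was found in 6 (42.9%), against 34.9%. Of the 39 genes over the cut-off, 32 had a promoter in the table, with TATAAA in 8 (25.0%), CCAAT in 11 (34.4%) and GGGCGG in 20 (62.5%). The share with GGGCGG was higher there than among the detected genes, while the shares with TATAAA and CCAAT differed little. These counts are small, and no difference was tested. Among the 25 Undetermined genes, 15 had a promoter in the table, of which 3 held TATAAA, 5 CCAAT and 9 GGGCGG. These are matches of letters, not binding sites, and the windows rest on annotated gene starts.

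After *Col3a1* the order was broken by the widest gap between neighbours, 1.93 cycles. *Igf1*, the growth factor IGF-1 that stimulates matrix synthesis in tendon and cartilage, ranked 4 with a Ct of 31.5 (dCt of 1.50). It was the earliest gene of a secreted signal and the earliest outside the matrix lists. *Comp*, the cartilage oligomeric matrix protein that bridges collagen fibrils, stood 0.13 cycles behind it at 31.6 (dCt of 1.63). *Col1a1*, the other chain of type I collagen, ranked 6 at 32.0 (dCt of 1.98).

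Next came a cluster of genes for an integrin chain, an annexin and a small proteoglycan. *Itgb1*, the integrin beta-1 chain shared by collagen and fibronectin receptors, had a Ct of 32.3 and *Anxa5*, the calcium-binding annexin A5, one of 32.4. *Bgn*, the small proteoglycan biglycan of the fibril surface, had a Ct of 32.5. Their dCt ran from 2.32 to 2.47 cycles, or 0.200 to 0.181 times the reference mean.

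The lower part of the order held 11 genes with a dCt over 3 cycles. *Cd36*, a fatty acid carrier and thrombospondin receptor of fat cells, macrophages and small vessels, had a Ct of 33.1 (dCt of 3.05). *Col4a1*, a chain of basement membrane collagen, was 0.013 cycles behind it. *Vegfa*, the main growth factor of vessels, and *Tgfbr2*, the type II receptor that binds TGF-beta, followed at dCt values of 3.15 and 3.21.

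*Serpinh1*, the collagen chaperone HSP47, had a Ct of 33.6, and *Col2a1*, the collagen of cartilage fibrils, one of 33.7. *Col6a1*, a chain of the pericellular collagen VI, had a Ct of 33.8. These genes, at ranks 14 to 16, had levels between 0.0840 and 0.0718 times the reference mean.

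The last genes under the cut-off were *Bmp1* (34.4), *Tgfb3* (34.5), *Smad4* (34.5) and *Ctsk* (34.7). *Bmp1* encodes the procollagen C-proteinase, which is named for BMPs but is no ligand of that family. *Tgfb3* is a TGF-beta ligand, *Smad4* the mediator shared by TGF-beta and BMP signals, and *Ctsk* the collagen-degrading protease cathepsin K. From *Col1a2* to *Ctsk* the order spanned 6.80 cycles, or 111-fold if template doubles per cycle, with a median dCt of 3.06.

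**Figure D1:**
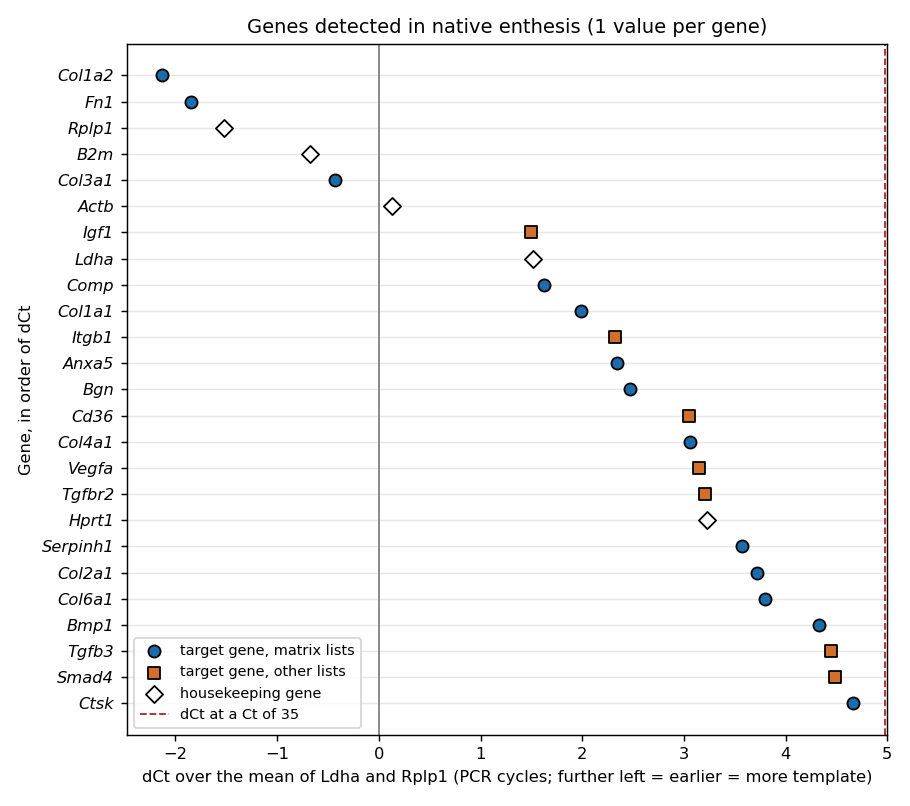
dCt of the 20 detected target genes and the 5 housekeeping genes in native enthesis, 1 value per gene in PCR cycles, with the earliest gene on top. Circles are matrix genes, squares other target genes and diamonds housekeeping genes. Among target genes only *Col1a2*, *Fn1* and *Col3a1* lie left of 0, as do the housekeeping genes *Rplp1* and *B2m*. *Ctsk* lies closest to the cut-off (dashed line, dCt of 4.98).

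Housekeeping genes were spread through the same range. *Rplp1*, a ribosomal protein gene, had a Ct of 28.5 and *B2m*, which encodes the light chain of MHC class I, one of 29.4. *Actb* (beta-actin) had a Ct of 30.2, *Ldha* (lactate dehydrogenase A) one of 31.5 and *Hprt1*, a purine salvage enzyme gene, one of 33.2. *Col1a2* and *Fn1* were thus earlier than all 5 housekeeping genes, and 13 target genes were earlier than *Hprt1*. The 2 reference genes were 3.04 cycles apart. A change of reference gene moves every dCt by the same amount and leaves the order as it is, but 4 target genes exceeded *Ldha* alone and 2 exceeded *Rplp1* alone.

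Neighbours in this order were often close. The 3 positive PCR control wells of the maker's usual layout differed by 0.096 cycles in native tissue and the 3 reverse transcription control wells by 0.029 cycles. Of the 19 gaps between neighbouring genes, 6 were smaller than 0.096 cycles, among them *Anxa5* behind *Itgb1* (0.019 cycles) and *Smad4* behind *Tgfb3* (0.041 cycles). The gap exceeded 0.5 cycles for 4 genes, *Col3a1*, *Igf1*, *Cd36* and *Bmp1*. The control wells came at a Ct of 21.8 to 23.8, much earlier than the target genes, and the spread of late wells was not measured. Levels of different genes also come from different primer pairs, whose efficiencies and product lengths are not stated, so the order is one of Ct and not of transcript numbers per length.

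The 2 chains of type I collagen stood far apart in Ct, and transcript level and assay efficiency cannot be told apart here. *Col1a1* was 4.12 cycles later than *Col1a2* in native tissue, against 2.81 to 4.18 cycles later in the 8 operated groups. The native gap lay inside that range. *Col1a1* was also 2.41 cycles later than *Col3a1* in native tissue, against 0.14 to 1.87 cycles later in the operated groups, so here the native gap lay outside the range.

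Among gene families, those of the extracellular matrix held most of the detected genes. The lists of collagens, collagen folding and trimming, other matrix and mineral-binding proteins and matrix proteases had 13 of 21 genes detected (61.9%). The other lists had 7 of 63 (11.1%), beside 23.8% for the whole array. These lists were chosen with results of the data known, and the shares are a description.

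Fibrillar collagens had 4 of 5 genes detected and 51.8% of the summed level, nearly all of it from *Col1a2* and *Col3a1*. *Col5a1*, a chain of the collagen V that starts fibrils, was the fifth and had a Ct of 36.3, later than *Col1a1* by 4.32 cycles. Of the other collagens 2 of 4 were detected. *Col14a1*, a collagen that sits on fibril surfaces, was just over the cut-off at 35.1, and *Col10a1* of hypertrophic cartilage was Undetermined. Both genes of collagen folding and trimming were detected.

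Of 5 other matrix and mineral-binding proteins 4 were detected, with 36.7% of the summed level, of which *Fn1* alone gave most. The exception was *Spp1*, the mineral-binding protein osteopontin, which was Undetermined. Among matrix proteases *Ctsk* was the 1 of 5 detected. The gelatinase *Mmp2* was just outside at 35.3, the collagenase *Mmp8* had a Ct of 37.6 and the stromelysin *Mmp10* one of 37.9, while the gelatinase *Mmp9* was Undetermined.

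Signals of the TGF-beta branch were detected in part. *Tgfbr2* and *Tgfb3* were the 2 of 6 TGF-beta ligands and receptors under the cut-off (33.3%, beside 23.8% for the whole array). *Tgfbr3*, the co-receptor betaglycan, came at 35.4 and *Tgfbr1*, the type I receptor that works in a complex with *Tgfbr2*, at 36.2, or 2.96 cycles after it. The ligand *Tgfb2* had a Ct of 37.8 and *Tgfb1* was Undetermined. Of the 5 SMADs, which carry TGF-beta and BMP signals to the nucleus, *Smad4* was detected (20%, near the share of the array). *Smad2* was near the cut-off at 35.3. *Smad3* (36.6) and *Smad5* (37.8) were later and *Smad1* was Undetermined.

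No BMP ligand, antagonist or receptor on the array passed the cut-off, while the shared mediator *Smad4* did. All 7 ligands were over it or Undetermined, with *Bmp6* the earliest at 35.8, *Bmp5* at 36.9, *Bmp4* at 37.4, *Bmp7* at 38.9 and *Gdf10* at 39.8, the latest Ct of all target genes. *Bmp2* and *Bmp3* were Undetermined. The receptors *Bmpr1a* (35.99), *Bmpr1b* (37.2), *Bmpr2* (37.3) and *Acvr1* (37.6) all gave a late Ct. Of the antagonists, sclerostin (*Sost*) had a Ct of 38.0 and chordin (*Chrd*) and noggin (*Nog*) were Undetermined.

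Of the 8 osteoblast and mineralization genes 0 were detected and 5 were Undetermined, namely *Ahsg*, *Bglap* (osteocalcin), *Dlx5*, *Phex* and *Sp7* (osterix). The alkaline phosphatase gene *Alpl* had a Ct of 36.9, the osteoblast regulator *Runx2* one of 38.1 and the vitamin D receptor *Vdr* one of 38.3. *Ihh*, the hedgehog ligand of growing cartilage, and *Gli1*, the transcription factor induced by hedgehog signals, were both Undetermined. Together the lists of BMP ligands, antagonists and receptors, hedgehog genes and osteoblast genes had 0 of 24 genes detected and 11 Undetermined. Over the whole array 23.8% were detected and 29.8% Undetermined, and these lists were chosen with results of the data known. The 24 genes were not detectable at this depth, which does not show that they were absent.

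**Figure D2:**
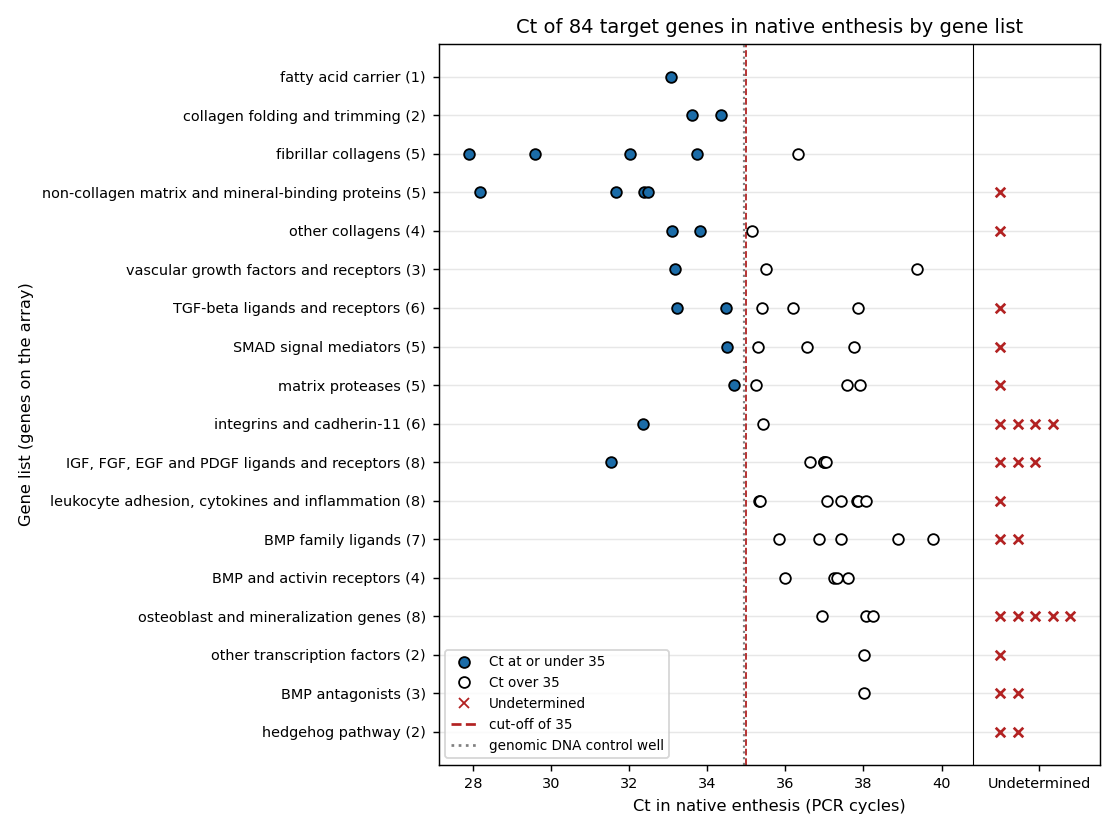
Ct in native enthesis, in PCR cycles, of the 84 target genes by gene list, with the number of genes on the array in brackets. Filled circles are at or under 35, open circles over 35 and crosses Undetermined. Filled circles are concentrated in the matrix lists, while the lists of BMP ligands, antagonists and receptors and the hedgehog, osteoblast and inflammation lists have none.

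Among growth factors other than BMPs and TGF-beta, *Igf1* was the 1 of 8 detected. Its receptor *Igf1r* was Undetermined, as were *Fgf1* and *Fgfr2*. The platelet-derived factor *Pdgfa* had a Ct of 36.6, and *Fgfr1*, *Egf* and *Fgf2* lay between 36.99 and 37.05. *Vegfa* was the 1 of 3 vascular factors and receptors detected (33.3%, beside 23.8% for the whole array). Its receptor *Flt1* came at 35.5 and *Vegfb* at 39.4.

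Among 6 genes of cell adhesion to matrix and to other cells only *Itgb1* was detected. Its partner *Itgav* lay at 35.4, and *Itga2*, *Itga3*, *Itgam* and cadherin-11 (*Cdh11*) were Undetermined. None of the 8 genes of leukocyte adhesion, cytokines and inflammation passed the cut-off. *Csf1*, the growth factor of macrophages, and the adhesion molecule *Icam1* were nearest at 35.3. *Nfkb1* followed at 37.1, *Csf2* at 37.4, *Vcam1* at 37.8, *Tnfsf11* (RANKL) at 37.9 and *Tnf* at 38.1, and *Csf3* was Undetermined. Of the remaining transcription factors, *Twist1* had a Ct of 38.0 and *Sox9*, the regulator of cartilage genes, was Undetermined.

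The labelled tissue was set against its markers. All 5 markers of tendon and fibrous matrix were detected (*Col1a1*, *Col1a2*, *Col3a1*, *Comp* and *Bgn*), a list chosen with results of the data known. It leaves out *Col5a1* (36.3) and *Col14a1* (35.1), fibril collagens of tendon that were not detected. Of 3 cartilage markers *Comp* and *Col2a1* were detected and *Sox9* had no Ct. Both markers of hypertrophic cartilage were Undetermined, and 0 of 7 osteoblast and osteocyte markers were detected. Of markers of other cell types, *Ctsk* (1 of 2 for osteoclasts), *Col4a1* (1 of 4 for endothelium) and *Cd36* were detected, beside 23.8% of the whole array. *Mmp9* of the osteoclast list was Undetermined, and *Flt1*, *Icam1* and *Vcam1* of the endothelial list were over the cut-off. *Cd36* is shared by fat cells, macrophages and small vessels. Of 5 leukocyte markers 0 were detected. The part of these cell types in the ranking was not tested.

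The cut-off falls in a dense stretch of the order. Just inside it stood *Smad4* (34.5) and *Ctsk* (34.7), and just outside *Col14a1* (35.1), *Mmp2* (35.3), *Smad2* (35.3), *Csf1* (35.3) and *Icam1* (35.3). Up to a Ct of 36 there were also *Tgfbr3*, *Itgav*, *Flt1*, *Bmp6* and *Bmpr1a*, 10 genes in all. A further 8 genes lay between 36 and 37, 13 between 37 and 38, and 8 beyond 38. At a cut-off of 33, 9 genes would count as detected, of which 7 belonged to the matrix lists, and with no cut-off 59 genes, of which 18 did.

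**Figure D3:**
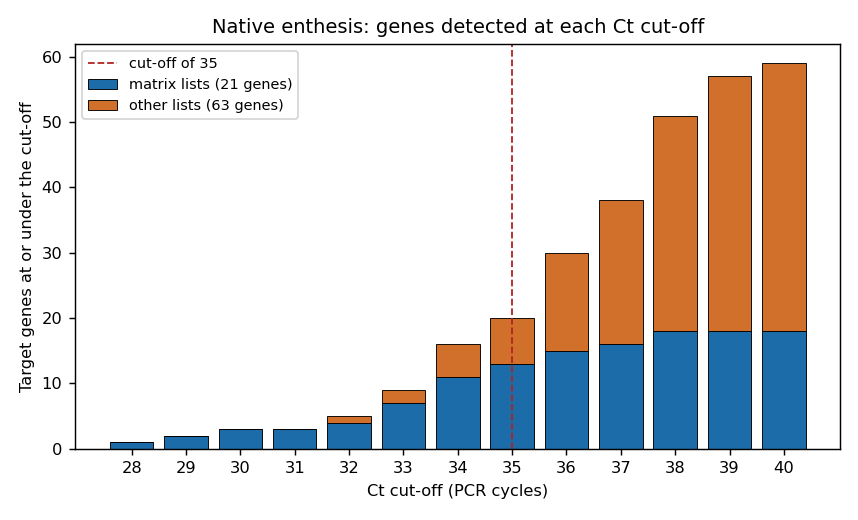
Number of target genes in native enthesis at or under each Ct cut-off, in PCR cycles, split into genes of the matrix lists (bottom) and of other lists (top). Up to a cut-off of 31 only 3 genes count, all of the matrix, and at 40 the other lists make up 41 of 59.

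Native tissue gave a Ct of 34.9 in the well that usually serves as the genomic DNA control. All 20 detected genes were ahead of it, which the cut-off of 35 nearly fixes in advance, and 16 were ahead by at least 1 cycle. *Bmp1*, *Tgfb3*, *Smad4* and *Ctsk* were ahead by only 0.59, 0.48, 0.44 and 0.26 cycles, and the part of genomic DNA in their signal was not tested.

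The mean of both reference genes was latest in native tissue among the 9 groups, but this order depended on the genes used. *Ldha* alone had a Ct of 31.5 in native tissue, against 32.5 in TC at 4 weeks. All 5 housekeeping genes together averaged 30.6 in native tissue, against 31.8 in TC at 12 weeks, where *Actb*, *B2m* and *Hprt1* were each later than in native tissue. *Ldha* and *Rplp1* averaged a Ct of 30.0 in native tissue, against values from 25.7 (S-AT, 12 weeks) to 29.8 (TC, 4 weeks). A Ct of 35 therefore lay only 4.98 cycles after the reference mean in native tissue, which is 0.0318 times that mean, against 5.23 to 9.27 cycles in the operated groups. With 20 genes, native tissue also had the fewest detected, against counts from 24 (TC, 4 weeks) to 83 (ED, 12 weeks). The genomic DNA control well had a Ct of 34.9 in native tissue, against 29.2 in ED, 30.4 in TC and 30.9 in S-MT at 12 weeks and 32.5 to 36.5 in the other 5 operated groups, and its part in these counts was not tested. With the limit set at a dCt of 4.98 in every group, an alternative chosen after the data were seen, native tissue had 20 genes, against 11 in S-AT and 68 in ED at 12 weeks, and 23 to 46 in the other 6 groups. S-AT at 12 weeks then had fewer than native tissue.

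**Figure D4:**
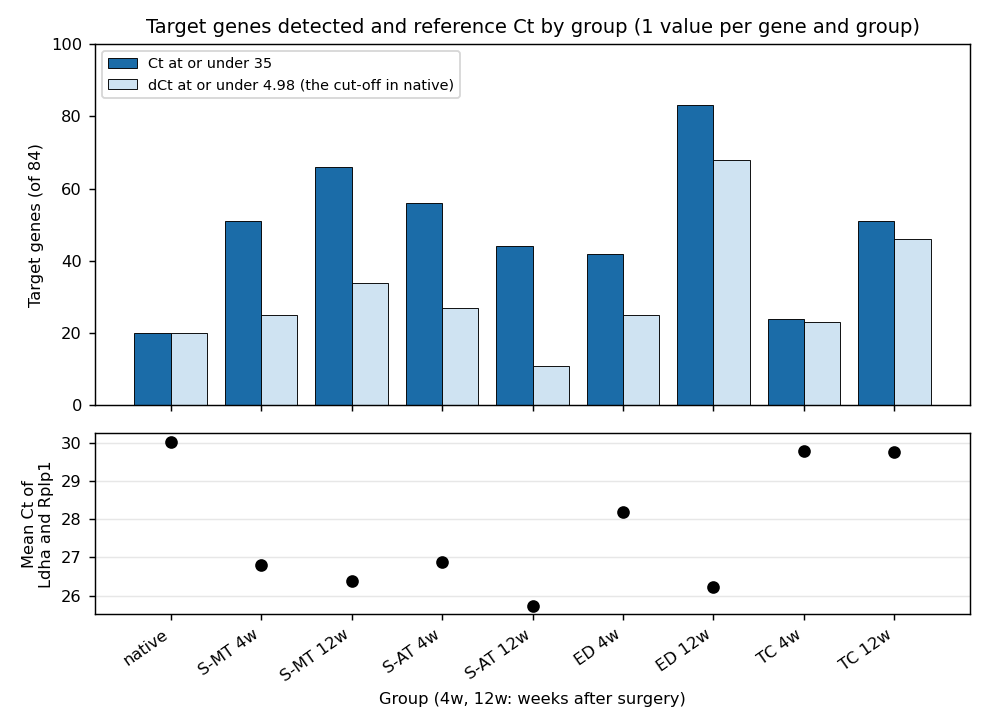
Target genes detected (bars, of 84) at a Ct of 35 or less and at a dCt of 4.98 or less, and the average Ct of *Ldha* and *Rplp1* in PCR cycles (points), for native enthesis and the operated groups, 1 value per gene and group. Native enthesis has the latest reference mean (30.0) and 20 genes by either limit.

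The top of the native order also stood at the top elsewhere. Ranked by Ct among the 84 target genes, *Col1a2* was first in native tissue and first in 7 of the 8 operated groups, and second in S-AT at 12 weeks. *Fn1* ranked 2 in native tissue and 2 to 6 in the operated groups. *Col3a1* ranked 3 in native tissue and 2 to 4 elsewhere, and *Col1a1* ranked 6 and 3 to 8. Between 28.6% (TC, 4 weeks) and 98.8% (ED, 12 weeks) of the 84 target genes were detected in an operated group. Outside the native 20, *Mmp2*, *Smad2*, *Col5a1*, *Bmpr2*, *Twist1* and *Spp1* were detected in all 8 operated groups. Of the 20 genes detected in native tissue, 16 were detected in all 8 operated groups. *Bgn* was Undetermined in S-AT at 12 weeks, and *Cd36*, *Tgfbr2* and *Smad4* were over the cut-off in TC at 4 weeks. Within these 20 genes Spearman's rho of Ct between native tissue and an operated group ran from 0.49 (S-AT at 12 weeks, 19 genes) to 0.80 (ED at 4 weeks). All groups share the same primer pairs, and genes are not independent of each other.

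Among the 20 detected genes, 3 had a native rank earlier than in all 8 operated groups. The 20 genes were picked by an early native Ct, and the condition was not particular to them. Over the cut-off, *Icam1* also met it, with place 25 in native tissue and 26 to 61 elsewhere. So did *Tgfbr3* (26, against 28 to 53) and *Fgfr1* (37, against 41 to 72). *Igf1* ranked 4 in native tissue and 5 to 24 in the operated groups. *Cd36* ranked 10 in native tissue and 14 to 67 elsewhere, and *Col4a1* ranked 11 and 15 to 43. The same 3 genes stood earlier in native tissue when only the 20 native genes were ranked. That ranking uses the same Ct values, in a set picked by native Ct, and is not an independent check. In that ranking *Ctsk*, the last of the 20 in native tissue, took ranks 5 to 19 in the operated groups, and *Col2a1*, rank 15 in native tissue, took ranks 2 to 14. The last of 20 could only keep its rank or move earlier. Among all 84 target genes *Ctsk* ranked 6 to 27 in the operated groups. That was later than in native tissue in 4 groups and earlier in 4. *Col2a1* ranked 2 to 17 there, later in 2 groups and earlier in 6. Of the 20 genes, 0 ranked later in native tissue than in all 8 operated groups.

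Of the 25 genes Undetermined in native tissue, 24 were detected in ED at 12 weeks, the group with the earliest genomic DNA control well. That group had 83 target genes detected (98.8% of the array), so the count of 24 is not particular to the Undetermined genes. *Ahsg*, the liver glycoprotein fetuin-A, was detected in 0 of 8 operated groups. For 16 genes detection was limited to between 1 and 3 operated groups. *Spp1*, named here after its values were seen, was the only one of the 25 detected in all 8 operated groups. It had no Ct in native tissue, while its Ct was 25.0 in S-MT at 4 weeks, 23.7 in S-MT at 12 weeks, 25.0 in S-AT at 4 weeks and 24.3 in S-AT at 12 weeks. In ED it was 28.6 at 4 weeks and 28.2 at 12 weeks, and in TC 31.4 and 31.7. *Spp1* thus ranked from 1 to 9 in every operated group. The native value is a single well. The reference mean was 30.0 in native tissue, 29.8 in TC at 4 weeks and 29.7 in TC at 12 weeks. All 5 housekeeping genes averaged 30.6 in native tissue, against 30.0 and 31.8 in TC. The cause of the missing Ct was not tested.

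**Figure D5:**
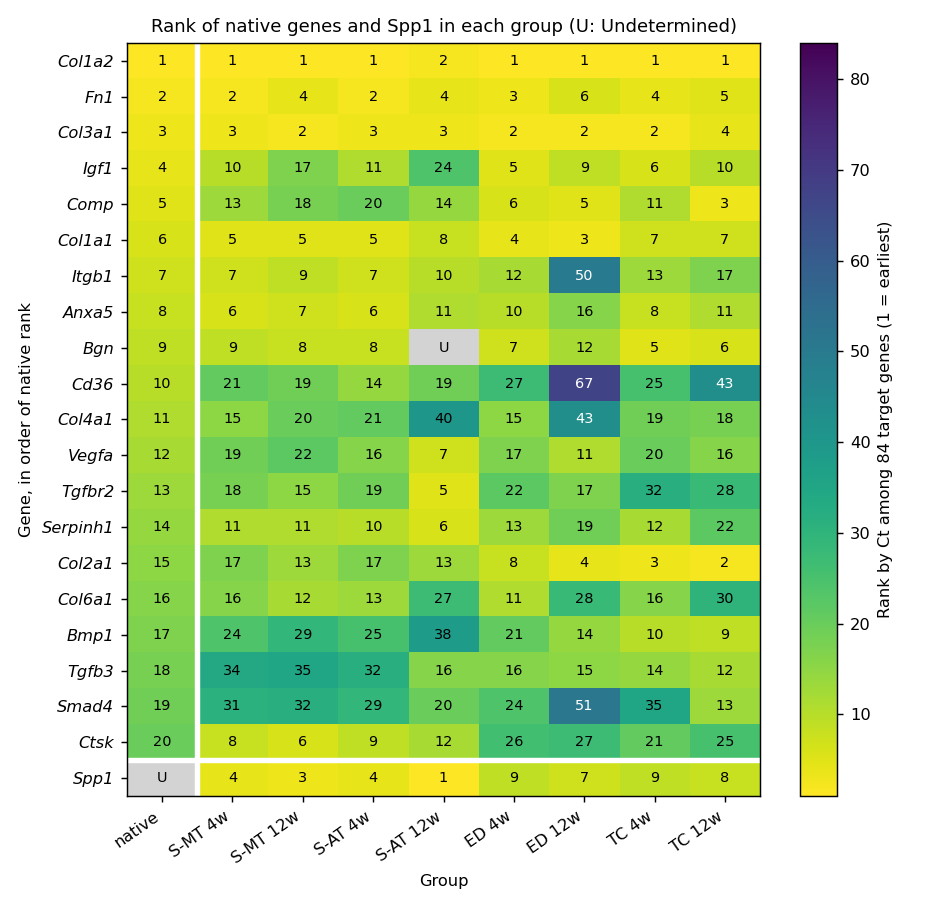
Rank by Ct among the 84 target genes (1 is the earliest) of the 20 genes detected in native enthesis and of *Spp1*, for native enthesis (left column) and the operated groups at 4 and 12 weeks (4w, 12w), with U for Undetermined. *Col1a2*, *Fn1*, *Col3a1* and *Col1a1* stay within the first 8 in all columns, while *Spp1* is Undetermined in native enthesis and ranks 1 to 9 elsewhere.

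Other genes outside the native 20 stood within the first 20 of at least 4 operated groups. Besides *Spp1* these were *Mmp2*, *Col5a1*, *Tgfbr1* and *Twist1*. In native tissue they held places 22, 32, 31 and 52 of the 59 genes with a Ct. *Twist1*, a transcription factor of mesenchymal cells, had a Ct of 38.0 in native tissue and ranked 13 to 33 in the operated groups.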

How the data were processed

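The authors extracted total RNA with phenol-chloroform, made cDNA with the RT2 First Strand Kit and ran a rat RT2 Profiler osteogenesis array with SYBR Green on a CFX 96 thermocycler. Per the labels and the methods, the first deposited table holds Ct values, a score in PCR cycles per well, and the second the deposited ratio of each gene to the mean of *Ldha* and *Rplp1*. A table of fold changes by the authors was not used. Of 96 wells, 84 hold target genes, 5 housekeeping genes and 7 controls. The roles of the control wells come from the maker's usual layout. Wells were named by the symbols of the second table, and all 84 symbols were found in RefSeq.

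The software was Python 3.11.15 with pandas 2.3.3 for dCt and ranks, numpy 2.4.6 for levels and matplotlib 3.10.9 for plots. A Ct over 35 was not detected. Relative levels assume doubling per cycle. The ranking was tested on 6 simulated tables. There is 1 value per gene and group, so no test, error or replicate comparison was possible. The rule names every detected gene, every gene up to a Ct of 36, the latest Ct and the Undetermined genes by list. Other genes over 35 were named, with their values seen, to account for every member. The 18 gene lists and the members were chosen with earlier results of these data known. Alternatives were other reference genes, Ct cut-offs of 33, 34, 36 and 37 or none, an amplification of 1.9 per cycle, a distance of 1 cycle from the genomic DNA control well, and the authors' normalized values.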

Additional observations from a re-analysis of the deposited data

Results flagged for a closer look

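The genomic DNA control well of native tissue had a Ct of 34.9, which is under the cut-off of 35 used for target genes. It was noticed because a control well that belongs to no comparison gave a signal by the rule for detection. In the operated groups the same well had a Ct between 29.2 in ED at 12 weeks and 36.5 in TC at 4 weeks.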

How the results depend on the processing

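The order of the 20 detected genes did not depend on the reference gene, which moves all dCt alike, and all 20 had the same rank in the authors' normalized values. The number detected did depend on the cut-off, with 9 genes at 33, 38 at 37 and 59 without one. It was 16 at 34, 30 at 36, and 16 when at least 1 cycle ahead of the genomic DNA control well was required. The median dCt of 3.06 cycles became 1.54 with *Ldha* alone, 4.58 with *Rplp1* alone, 2.52 with all 5 housekeeping genes and 1.63 at a cut-off of 33, and levels relative to the reference moved with it. The span of 6.80 cycles became 4.60 at a cut-off of 33, which leaves fewer genes, and 6.30 doublings with an amplification of 1.9 per cycle. Replicates could not be left out in turn because each gene has 1 value. The mean of *Ldha* and *Rplp1* was 30.0 in native tissue with 20 genes detected, against 29.7 in TC at 12 weeks with 51 detected, and the cause was not tested. Places after the first 16 lie within 1 cycle of the genomic DNA control well.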

Other observations

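In the authors' normalized values for native tissue, 62 of the 84 target genes shared 1 value, 0.0317, which is the level at the cut-off. They were all 25 Undetermined genes and 37 of the 39 genes over 35. The other two, *Icam1* and *Gdf10*, kept values of their own, 0.0250 and 0.00115, although their Ct was over 35. Among the 20 detected genes the normalized values differed from those computed here by at most 0.0037 cycles. By plate row, which follows the alphabet, 3, 4, 5, 2, 1, 2 and 3 target genes of 12 were detected in rows A to G, and row G alone had no Undetermined well.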
